A study of Mus musculus with 17 samples.

Results

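Pou5f1 (Oct4), Sox2, Klf4 and Myc are the 4 transcription factors whose joint expression reprograms fibroblasts, abbreviated OSKM. They were taken by symbol from count tables of 24015 genes, so that the description covers 4 of 24015 genes. Messenger RNA was sequenced from CD-1 mouse cells in 17 libraries. Mouse embryonic fibroblasts (MEF), kept for 3 passages in MEF medium, gave 3 libraries. XEN cells, labelled as stem cell lines of the extraembryonic endoderm, the lineage that lines the yolk sac, were sequenced in 3 libraries from embryonic stem cell (ESC) medium and 3 from XEN medium. For iXEN cells, the induced counterpart that the series title ascribes to OSKM, there were 4 libraries per medium. Both kinds of endoderm cell went through 10 passages in ESC medium, followed by 5 passages in ESC or in XEN medium. Each library is named by its cell type, its medium and the number in its label, which was 1, 2 or 7 for XEN cells and 1, 2, 6 or 9 for iXEN cells, so that iXEN XEN 9 is the iXEN library numbered 9 in XEN medium.

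How the factors were delivered to the iXEN cells, and whether introduced copies were still present, is not given in the sources used here. Counts by gene symbol add reads of an introduced copy to those of the cell's own gene where the counted exons match, and the 2 sources cannot be told apart. MEF differ from the endoderm cells in cell type, culture medium and passages at once, which cannot be told apart either. The 4 comparisons with MEF share the same 3 MEF libraries. Beyond the words biological replicates in the design text, no label ties a library to its own culture or derivation, so the p-values measure only the spread between these libraries.

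Pou5f1 and Sox2 bind DNA together at composite sites of neighbouring Sox and octamer motifs and hold pluripotent cells in their state. In the embryo both genes are active in the inner cell mass, and the primitive endoderm that gives rise to XEN cells switches Sox2 off. Klf4 is a zinc-finger factor that is also active in epithelia, gut and fibroblasts, and Myc, which pairs with Max at E-boxes, drives ribosome making and growth in most dividing cells.

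The libraries held 20071567 to 45914262 counts in genes. Levels are given as CPM, counts scaled to library size, and 3 counts in a library, taken as the floor of detection, corresponded to 0.0653 to 0.149 CPM. Of 10 endoderm markers (such as Gata4, Gata6, Sox17 and Lama1), between 8 and 10 were called higher (adjusted p under 0.05 in edgeR's test) than in MEF in each of the 4 comparisons. Of all genes tested, 46.7% in iXEN and 25.0% in XEN cells in ESC medium were called in either direction. In XEN medium these shares were 32.6% in iXEN and 47.5% in XEN cells. The summed level of the 10 markers was 2229 to 2988 CPM in MEF and 9024 to 134377 CPM in XEN and iXEN libraries. Single markers departed from this sum. Col4a1 and Col4a2 stood at 6.10 and 3.13 CPM in XEN XEN 1, where MEF had at least 780 and 666 CPM. Sox7 stood at 0.470 CPM in XEN ESC 7 and 0.805 CPM in XEN XEN 7, near the 0.387 to 0.560 CPM of MEF. Of 9 markers of embryonic stem (ES) or induced pluripotent stem (iPS) cells, summed levels stayed between 1.75 and 26.1 CPM in the 14 XEN and iXEN libraries. In MEF they were 1.08 to 1.17 CPM. The highest sum, in iXEN ESC 2, was mostly Zfp42 (25.6 CPM). Fibroblast markers (8, such as Col1a1 and Thy1) summed to 34979 to 49095 CPM in MEF and to at most 29.0 CPM in 10 endoderm libraries. The other 4 were XEN ESC 1 at 7602 CPM, iXEN XEN 2 at 2165 CPM, iXEN XEN 9 at 978 CPM and XEN ESC 2 at 303 CPM.

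Pou5f1 and Sox2 both stood highest in iXEN XEN 9, with XEN ESC 1 next, and the 250 bases before the first transcribed base of each are therefore shown. They are RefSeq sequences of build GRCm38.p6, both on the plus strand, at chr17:35505782-35506031 for Pou5f1 and chr3:34649745-34649994 for Sox2. Capitals mark matches, on either strand, to the nuclear receptor half-site AGGTCA, the GC box GGGCGG and the octamer ATGCAAA. The E-box CACGTG was also searched. No 2 of these motifs overlap in the sequences shown.
Pou5f1: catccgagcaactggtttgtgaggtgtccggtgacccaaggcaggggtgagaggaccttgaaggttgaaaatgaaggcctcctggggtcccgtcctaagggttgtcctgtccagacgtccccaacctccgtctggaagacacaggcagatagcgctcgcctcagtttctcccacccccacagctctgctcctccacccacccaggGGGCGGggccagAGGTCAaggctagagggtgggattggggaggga
Sox2: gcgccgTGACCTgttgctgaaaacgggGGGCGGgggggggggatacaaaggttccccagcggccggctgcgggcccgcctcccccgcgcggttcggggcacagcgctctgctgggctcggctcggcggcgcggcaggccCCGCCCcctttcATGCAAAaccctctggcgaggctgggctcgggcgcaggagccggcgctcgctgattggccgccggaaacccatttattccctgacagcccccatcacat
The Pou5f1 window held the half-site 33 to 28 bases before the start and a GC box 45 to 40 bases before it. The Sox2 window held the half-site on the minus strand 244 to 239 bases before the start. It held GC boxes at 223 to 218 bases and, on the minus strand, at 111 to 106 bases, and the octamer at 99 to 93 bases. Neither window held CACGTG. Among 32851 RefSeq promoter windows of the same 250 bases, 14% held AGGTCA, 32.7% GGGCGG, 4.12% ATGCAAA and 6.02% CACGTG, so each match was of a kind found in many promoters.

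Pou5f1, the POU-domain factor at the centre of the pluripotency network, was close to absent in MEF and present at a low level in nearly all endoderm libraries, with 1 library far above the rest. In MEF 1, 2 and 3 it stood at 0.116, 0.0376 and 0.0295 CPM, which rest on 5 counts over the 3 libraries. In ESC medium it stood at 8.99, 2.82 and 0.157 CPM in XEN 1, 2 and 7, and at 0.798, 0.906, 1.11 and 0.392 CPM in iXEN 1, 2, 6 and 9. In XEN medium it stood at 4.43, 0.605 and 0.471 CPM in XEN 1, 2 and 7, and at 0.570, 1.38, 0.632 and 58.4 CPM in iXEN 1, 2, 6 and 9. Every XEN and iXEN library lay above all 3 MEF libraries. Among the endoderm groups the ranges overlapped, and only iXEN XEN 9 exceeded 10 CPM. In order of their means, iXEN cells in XEN medium (15.3 ± 28.8 CPM, SD, n = 4) came before XEN cells in ESC medium (3.99 ± 4.53, n = 3), XEN cells in XEN medium (1.84 ± 2.25, n = 3), iXEN cells in ESC medium (0.801 ± 0.301, n = 4) and MEF (0.0611 ± 0.0479, n = 3). Only the last neighbours in that order, iXEN cells in ESC medium and MEF, did not overlap. In bulk samples, few cells with much Pou5f1 RNA and many cells with little cannot be told apart.

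Sox2, the SoxB1 factor that partners Pou5f1, was the member with the widest swings, from 0 to 1665 counts in a library. It stood at 1.66, 1.92 and 3.80 CPM in MEF 1, 2 and 3. XEN 1, 2 and 7 in ESC medium had 7.25, 3.04 and 0 CPM, and XEN 1, 2 and 7 in XEN medium had 0.0490, 0 and 0 CPM. The 4 iXEN libraries in ESC medium had 1 count each, or 0.0420, 0.0232, 0.0461 and 0.0327 CPM in iXEN 1, 2, 6 and 9. In XEN medium iXEN 1, 2, 6 and 9 had 0.0380, 0.0738, 0 and 48.2 CPM. Sox2 was thus above the floor of 3 counts in 6 of 17 libraries, namely the 3 MEF libraries, XEN ESC 1 and 2, and iXEN XEN 9. The other 11 libraries had 0 to 3 counts each, which is at or under that floor and too shallow to order them. By group means, iXEN cells in XEN medium (12.1 ± 24.1 CPM, SD, n = 4) were followed by XEN cells in ESC medium (3.43 ± 3.64, n = 3), MEF (2.46 ± 1.17, n = 3), iXEN cells in ESC medium (0.0360 ± 0.0102, n = 4) and XEN cells in XEN medium (0.0163 ± 0.0283, n = 3). MEF and iXEN cells in ESC medium did not overlap, whereas the other neighbours did.

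Klf4 was abundant in every library. It stood at 141, 128 and 186 CPM in MEF 1, 2 and 3. In ESC medium it stood at 264, 191 and 120 CPM in XEN 1, 2 and 7 and at 302, 533, 425 and 223 CPM in iXEN 1, 2, 6 and 9. In XEN medium it stood at 474, 234 and 132 CPM in XEN 1, 2 and 7 and at 71.8, 281, 320 and 124 CPM in iXEN 1, 2, 6 and 9. All 4 iXEN libraries in ESC medium lay above MEF, while each other endoderm group had libraries within or below the MEF range. The group means ran from 371 ± 137 CPM (SD, n = 4) in iXEN cells in ESC medium through 280 ± 176 (n = 3) in XEN cells in XEN medium, 199 ± 120 (n = 4) in iXEN cells in XEN medium and 192 ± 72.2 (n = 3) in XEN cells in ESC medium to 152 ± 30.3 (n = 3) in MEF, and all neighbours in this order overlapped. In XEN cells the order of the numbers was the same in both media, with 1 highest and 7 lowest.

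Myc was present at moderate levels throughout. MEF 1, 2 and 3 had 48.6, 50.4 and 39.2 CPM. XEN 1, 2 and 7 had 31.5, 35.6 and 46.6 CPM in ESC medium and 29.3, 40.8 and 49.2 CPM in XEN medium. iXEN 1, 2, 6 and 9 had 16.4, 29.1, 47.6 and 14.3 CPM in ESC medium and 83.4, 58.8, 24.2 and 79.7 CPM in XEN medium. XEN libraries thus stayed near the MEF levels in both media, and the iXEN libraries held both the lowest and the highest values. The means were 61.5 ± 27.2 CPM (SD, n = 4) in iXEN cells in XEN medium, 46.1 ± 6.01 (n = 3) in MEF, 39.8 ± 10.0 (n = 3) in XEN cells in XEN medium, 37.9 ± 7.82 (n = 3) in XEN cells in ESC medium and 26.8 ± 15.3 (n = 4) in iXEN cells in ESC medium, and all neighbours overlapped.

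**Figure D1:**
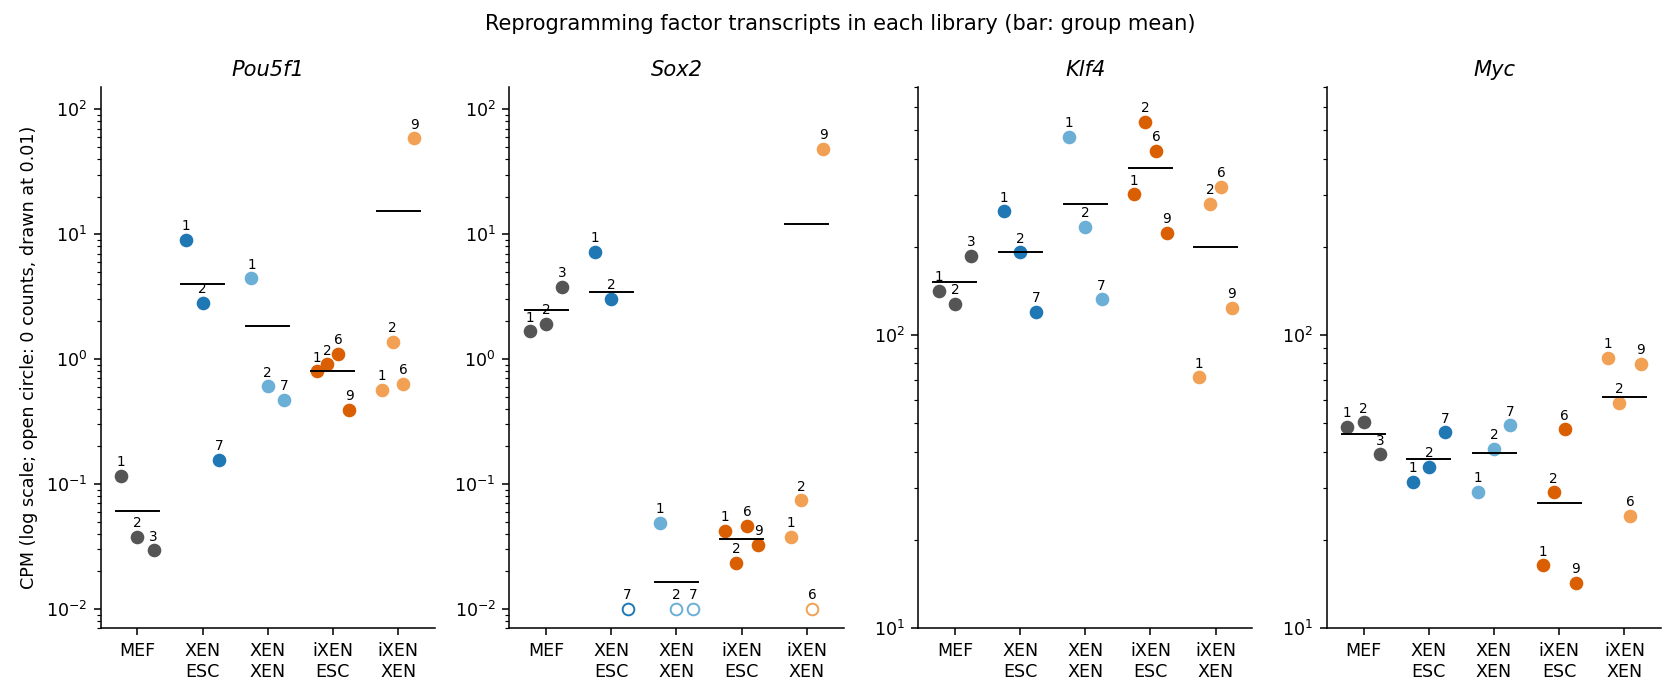
Level of each factor in each library, in CPM on a log axis, by group; numbers are the libraries' label numbers, bars are group means, and open circles are libraries with 0 counts drawn at 0.01. iXEN XEN 9 stands at 58.4 CPM for Pou5f1 and 48.2 CPM for Sox2, above all other libraries, while Klf4 and Myc lie between 14.3 and 533 CPM in all 17 libraries.

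Set per length of their exons, which removes the advantage of long transcripts, Klf4 led the 4 factors in every group. On the scale of mean CPM per kilobase, it stood at 50.1 in MEF, 63.3 and 92.5 in XEN cells in ESC and XEN medium, and 122 and 65.7 in iXEN cells in ESC and XEN medium. Myc followed with 11 to 25.1 over the 5 groups. Pou5f1 had 0.0448 in MEF and 0.588 to 11.2 in the endoderm groups, and Sox2 had 0.00794 to 5.87 over the 5 groups.

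The first comparison asked how the factors differ between iXEN cells in ESC medium and fibroblasts. Pou5f1 and Klf4 were higher and Sox2 was lower in the iXEN cells, and the groups did not overlap for these 3 factors. In edgeR's quasi-likelihood test with Benjamini-Hochberg adjustment over all genes tested, Pou5f1 rose by a log2 fold change of 3.70 (SE 0.66, adjusted p = 0.00204). Klf4 rose by 1.32 (SE 0.32, edgeR adjusted p = 0.00969). Sox2 fell by 5.98 on the log2 scale (SE 0.55, edgeR adjusted p = 6.12e-05), and the ratio of its counts per library size, MEF over iXEN, was 75.4 (95% counting interval 29.1 to 279, on 223 and 4 counts). Myc lay at -0.74 (95% interval -1.67 to 0.19, edgeR adjusted p = 0.172). So 3 of 4 factors were called, against 46.7% of all 14352 genes tested (20.8% higher and 25.9% lower). Groups of CPM that do not overlap occurred in 54.6% of genes. Pou5f1 passed the low-count filter through the iXEN libraries alone and Sox2 through MEF alone, so that for both a difference was built into passing. The same holds for the calls of both factors in XEN medium. All 3 calls were lost when the 5 groups shared 1 estimate of spread (edgeR adjusted p = 0.142 for Pou5f1, 0.0742 for Sox2 and 0.0742 for Klf4). Without iXEN ESC 6, the library with the highest Myc of its group, Myc was called lower (-1.18, edgeR adjusted p = 0.0087).

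In XEN cells in ESC medium, none of the factors was called against MEF. Sox2 lay at 0.53 (95% interval -3.09 to 4.14, edgeR adjusted p = 0.810), Klf4 at 0.40 (-0.43 to 1.23, adjusted p = 0.412) and Myc at -0.21 (-0.83 to 0.40, adjusted p = 0.551). Among the 3 factors tested, 0 were called, against 25.0% of 14001 genes, and 0 had an unadjusted edgeR p under 0.05, against 41.5% of genes. Pou5f1 missed the filter on low counts. Its XEN libraries nevertheless lay above all MEF libraries, as in 53.3% of genes whose groups do not overlap. Without the filter Pou5f1 was called higher (6.0, edgeR adjusted p = 0.0401), as it was by DESeq2 (6.17, adjusted p = 8.6e-05), which called 35.4% of genes. With 1 library left out Pou5f1 passed the filter in 4 of 6 fits. It was not called without MEF 1, 2 or 3 (edgeR adjusted p = 0.108 to 0.144), was called without XEN ESC 7 (6.73, adjusted p = 0.00549), and missed the filter without XEN ESC 1 or 2. For Sox2 the sign depended on XEN ESC 1, without which it was -0.67 (edgeR adjusted p = 0.786).

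The Sox2 signal of XEN ESC 1 and 2 stood beside fibroblast transcripts. XEN ESC 1 had Sox2 at 295% of the MEF mean, and XEN ESC 2 at 124%. Of 5 fibroblast genes set beside it (Col1a1, Col3a1, Thy1, Postn and Lum), levels ran from 1.34% (Lum) to 76.5% (Thy1) of the MEF mean in XEN ESC 1 and from 0.0479% (Postn) to 0.951% (Col1a1) in XEN ESC 2. XEN ESC 7 had summed fibroblast markers of 29.0 CPM and no Sox2 count. In iXEN XEN 2 these genes stood at 2.73% (Col1a1) to 57.6% (Thy1) of the MEF mean and Sox2 at 3.00% of it. The part of fibroblast RNA in the level of Sox2 was not tested.

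In XEN cells in XEN medium, Pou5f1 rose against MEF by 4.92 (SE 1.22, edgeR adjusted p = 0.0185) and Sox2 fell by 6.95 on the log2 scale (SE 1.06, adjusted p = 0.00355). Sox2 had 2 counts over these 3 XEN libraries, and relative to library size MEF had 157 times as many (95% counting interval 43.0 to 1307). Klf4 lay at 0.93 (95% interval -0.18 to 2.05, edgeR adjusted p = 0.140) and Myc at -0.16 (-0.74 to 0.42, adjusted p = 0.598). Thus 2 of 4 factors were called, against 47.5% of 14390 genes, and the groups of these 2 did not overlap, as in 63.4% of genes. The Pou5f1 call was lost without any 1 MEF library (edgeR adjusted p = 0.0523 to 0.0803), and both calls were lost with 1 spread for 5 groups (0.0645 for Pou5f1 and 0.0741 for Sox2). Without XEN XEN 7, Klf4 was called higher (1.28, edgeR adjusted p = 0.0168).

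In iXEN cells in XEN medium, Pou5f1 was the 1 factor of 4 called against MEF, at 8.06 (SE 2.43, edgeR adjusted p = 0.0394), where 32.6% of 14438 genes were called. Its groups did not overlap, as in 51.3% of genes. Sox2 lay at 2.45 (95% interval -3.25 to 8.14, edgeR adjusted p = 0.459), Klf4 at 0.49 (-0.74 to 1.71, adjusted p = 0.493) and Myc at 0.50 (-0.47 to 1.47, adjusted p = 0.379). Leaving out iXEN XEN 9 turned Sox2 to -5.78 and called it lower (edgeR adjusted p = 0.00709), and Pou5f1 then stood at 3.85 (adjusted p = 0.0124). Leaving out any 1 MEF library ended the Pou5f1 call (edgeR adjusted p = 0.113 to 0.135), and DESeq2, which called 37.1% of genes, gave no adjusted p for Pou5f1 and Sox2 and called neither Klf4 nor Myc.

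**Figure D2:**
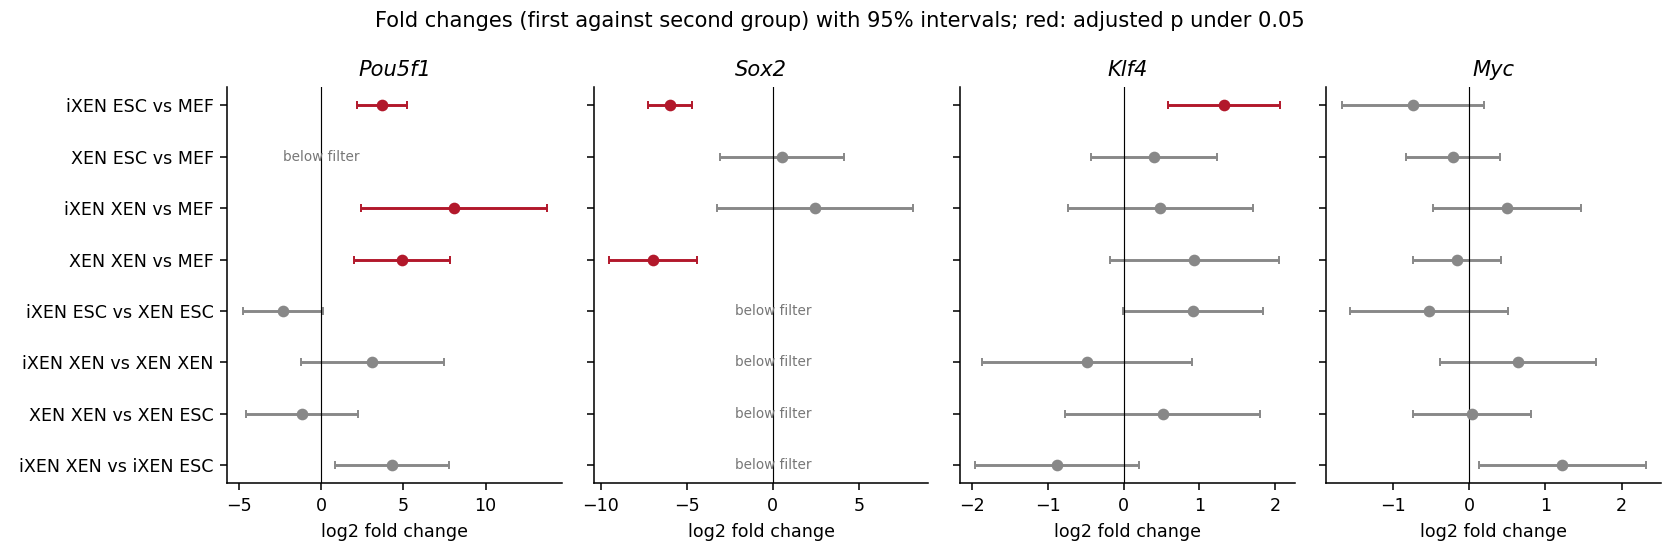
Log2 fold changes of each factor (first group against second) with 95% intervals from edgeR, for the 8 comparisons of 2 groups; red points have an adjusted p under 0.05, and factors under the low-count filter have no point. The 6 red points all belong to comparisons with MEF, and the widest intervals are those of Pou5f1 and Sox2 in iXEN cells in XEN medium.

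Between iXEN and XEN cells in the same medium, none of the factors was called by edgeR, and neither was any other gene (0 of 12944 in ESC medium, 0 of 13263 in XEN medium). In ESC medium Pou5f1 lay at -2.34 (95% interval -4.78 to 0.09, edgeR adjusted p = 0.374), and at -0.88 without XEN ESC 1 (adjusted p = 0.748). Klf4 lay at 0.92 (-0.01 to 1.85, adjusted p = 0.367) and Myc at -0.53 (-1.56 to 0.51, adjusted p = 0.565). In XEN medium Pou5f1 lay at 3.11 (-1.25 to 7.47), Klf4 at -0.48 (-1.86 to 0.91) and Myc at 0.64 (-0.38 to 1.66), each with an edgeR adjusted p of 0.985. The direction of Pou5f1 rested on iXEN XEN 9, without which it was -1.06, and that of Klf4 on XEN XEN 1, without which it was 0.13. At an unadjusted p under 0.05, 0 factors passed in either medium, beside 13.7% and 4.10% of genes. These intervals are wide, and they do not show that the 2 cell types have like levels. DESeq2 called 1 factor in ESC medium, Sox2 lower in iXEN cells (-6.63, adjusted p = 0.0016), where it called 3.80% of genes. In XEN medium, where it called 0.916% of genes, it gave no adjusted p for Pou5f1 and Sox2 and called neither Klf4 nor Myc. With edgeR, Sox2 was below the low-count filter in both, and it was called lower in iXEN cells when XEN ESC 7, which had no Sox2 count, was left out (-7.07, adjusted p = 0.0257).

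Between XEN medium and ESC medium, 0 factors were called by edgeR in XEN cells and 0 in iXEN cells, and again no gene was (0 of 13241 and 0 of 12920). In iXEN cells, Pou5f1 lay at 4.31 (95% interval 0.84 to 7.77, unadjusted p = 0.0200, adjusted p = 0.149) and Myc at 1.22 (0.12 to 2.32, unadjusted p = 0.0328, adjusted p = 0.178), and 23.4% of genes had an unadjusted edgeR p under 0.05. Without both iXEN libraries numbered 9, Pou5f1 stood at -0.11 (edgeR adjusted p = 0.954). Klf4 lay at -0.88 (-1.96 to 0.21, edgeR adjusted p = 0.303). In XEN cells Pou5f1 lay at -1.15 (-4.57 to 2.27), Klf4 at 0.52 (-0.77 to 1.81) and Myc at 0.03 (-0.74 to 0.81), with edgeR adjusted p of 0.872, 0.857 and 0.987. In XEN cells 0 of the 3 factors tested had an unadjusted edgeR p under 0.05, beside 5.63% of genes, and in iXEN cells 2 had. By DESeq2, Sox2 was called lower in XEN medium in XEN cells (-7.80, adjusted p = 0.0434), where 0.620% of genes were called. In iXEN cells, where it called 11.4% of genes, DESeq2 gave no adjusted p for Pou5f1 and Sox2 and called neither Klf4 nor Myc.

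Read by number, Klf4 went opposite ways in the 2 cell types. It was higher in XEN medium in 3 of 3 XEN numbers, by 0.15 to 0.85 on the log2 scale, and lower in 4 of 4 iXEN numbers, by -2.07 to -0.41. No label says that a number marks the same line in both media. Deviations of same-numbered libraries from their group means correlated at 0.24 to 0.63 in XEN cells but at only -0.03 to 0.18 in iXEN cells. XEN XEN 1 correlated best with XEN ESC 2, and iXEN XEN 9 with iXEN ESC 6. The changes therefore join libraries by number alone. The mean change was 0.43 ± 0.37 (SD, n = 3) in XEN cells and -1.06 ± 0.71 (SD, n = 4) in iXEN cells. The interaction of cell type and medium lay at -1.39 (95% interval -3.05 to 0.27, edgeR adjusted p = 0.398), so the difference did not pass. The same pattern, higher in every XEN number and lower in every iXEN number, was shown by 243 of 14357 genes (1.69%). Over all 4 factors, 0 were called in the interaction by edgeR. An unadjusted edgeR p under 0.05 was reached by 2, Pou5f1 and Sox2, beside 14.8% of genes. DESeq2 called 1 (Sox2, adjusted p = 0.00158, beside 3.43% of genes). Leaving out 1 library moved the Pou5f1 interaction between 1.29 and 7.21. Among the XEN and iXEN libraries, Sox2 was above the floor of 3 counts only in XEN ESC 1, XEN ESC 2 and iXEN XEN 9. Myc had no common direction by number in iXEN cells, where it was higher in XEN medium in numbers 1, 2 and 9 and lower in number 6.

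**Figure D3:**
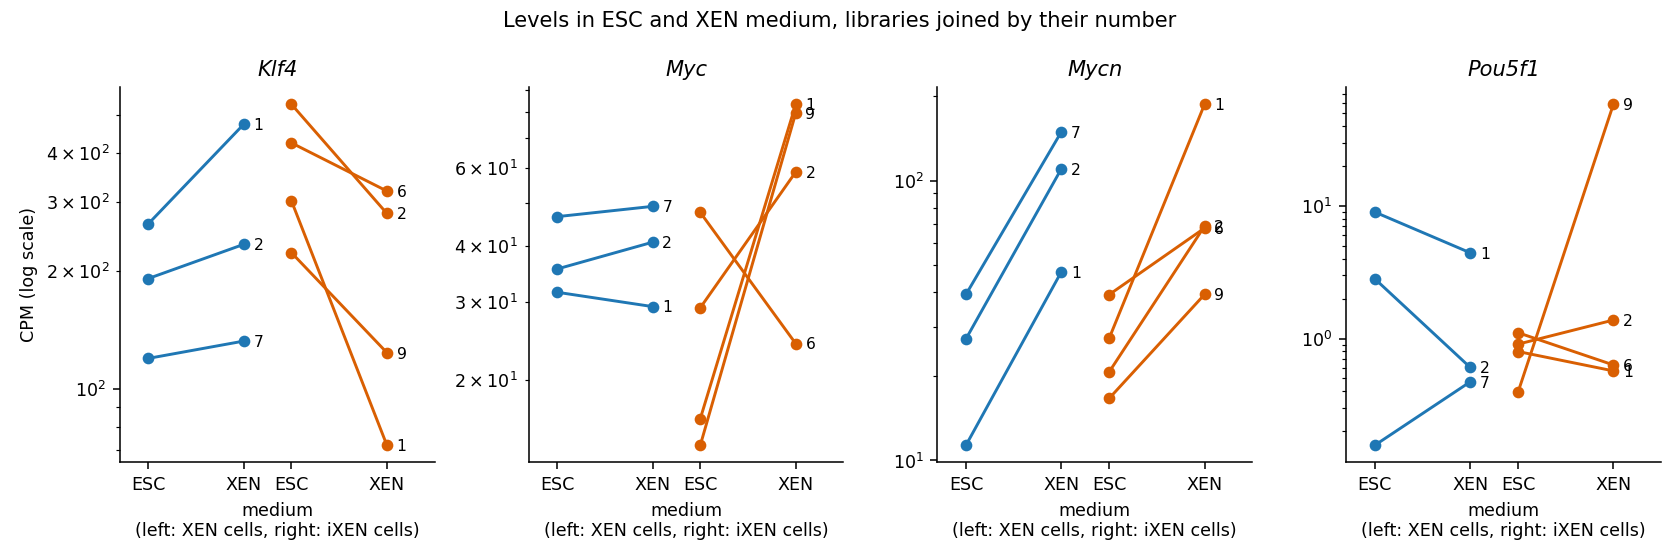
Level in ESC and XEN medium, in CPM on a log axis, of Klf4, Myc, Mycn and Pou5f1; lines join libraries with the same label number, XEN cells on the left and iXEN cells on the right of each panel. Klf4 lines go up in 3 of 3 XEN numbers and down in 4 of 4 iXEN numbers, Mycn lines go up in 7 of 7, and the Pou5f1 line of iXEN 9 goes from 0.392 to 58.4 CPM.

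The library iXEN XEN 9 had both factors of the pluripotency pair at levels not seen elsewhere. Pou5f1 had 2018 counts there, and its counts per library size were 59.1 times those of iXEN XEN 1, 2 and 6 together (95% counting interval 48.0 to 73.7). Sox2 had 1665 counts against 4 in those 3 libraries, a ratio of 1122 (437 to 4124). Sox2ot, the long RNA gene in whose intron Sox2 lies, stood at 2.03 CPM, 12.6 times the other 3 (7.13 to 23.7). The library of the same number in ESC medium, iXEN ESC 9, had 12 counts of Pou5f1 and 1 of Sox2. Klf4 and Myc, at 124 and 79.7 CPM, lay within the range of iXEN XEN 1, 2 and 6. These intervals cover counting error only.

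Markers of other cells in iXEN XEN 9 were as follows. Of the 9 ES and iPS cell markers, Esrrb, Fgf4, Tdgf1, Dppa4 and Tcl1 had 0 counts, and the list summed to 2.92 CPM, against 1.75 to 26.1 CPM in the remaining 13 endoderm libraries. Nanog stood at 1.39 CPM, within the 0.224 to 2.43 CPM of these 13. Endoderm markers summed to 30412 CPM and none of the 10 was at 0. Fibroblast markers summed to 978 CPM, with Col1a1 at 2.72% of the MEF mean, Lum at 0, and Twist1 at 36.5 CPM, where MEF had 39.2 to 65.4 CPM and no further endoderm library passed 23.3 CPM. Neural progenitor markers (8) summed to 15.7 CPM with 3 at 0. Ccnd1 (cyclin D1) stood at 794 CPM, against at most 216 CPM in the remaining endoderm libraries, and the retinoic acid receptor gene Rarg at 56.4 CPM, against at most 30.0 CPM. MEF had 141 to 229 CPM of Ccnd1 and 88.5 to 106 CPM of Rarg, so Rarg lay below MEF. Ccnd1 and Rarg were singled out after their values were seen. The part of any of these cell types in the level of Pou5f1 and Sox2 was not tested.

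**Figure D4:**
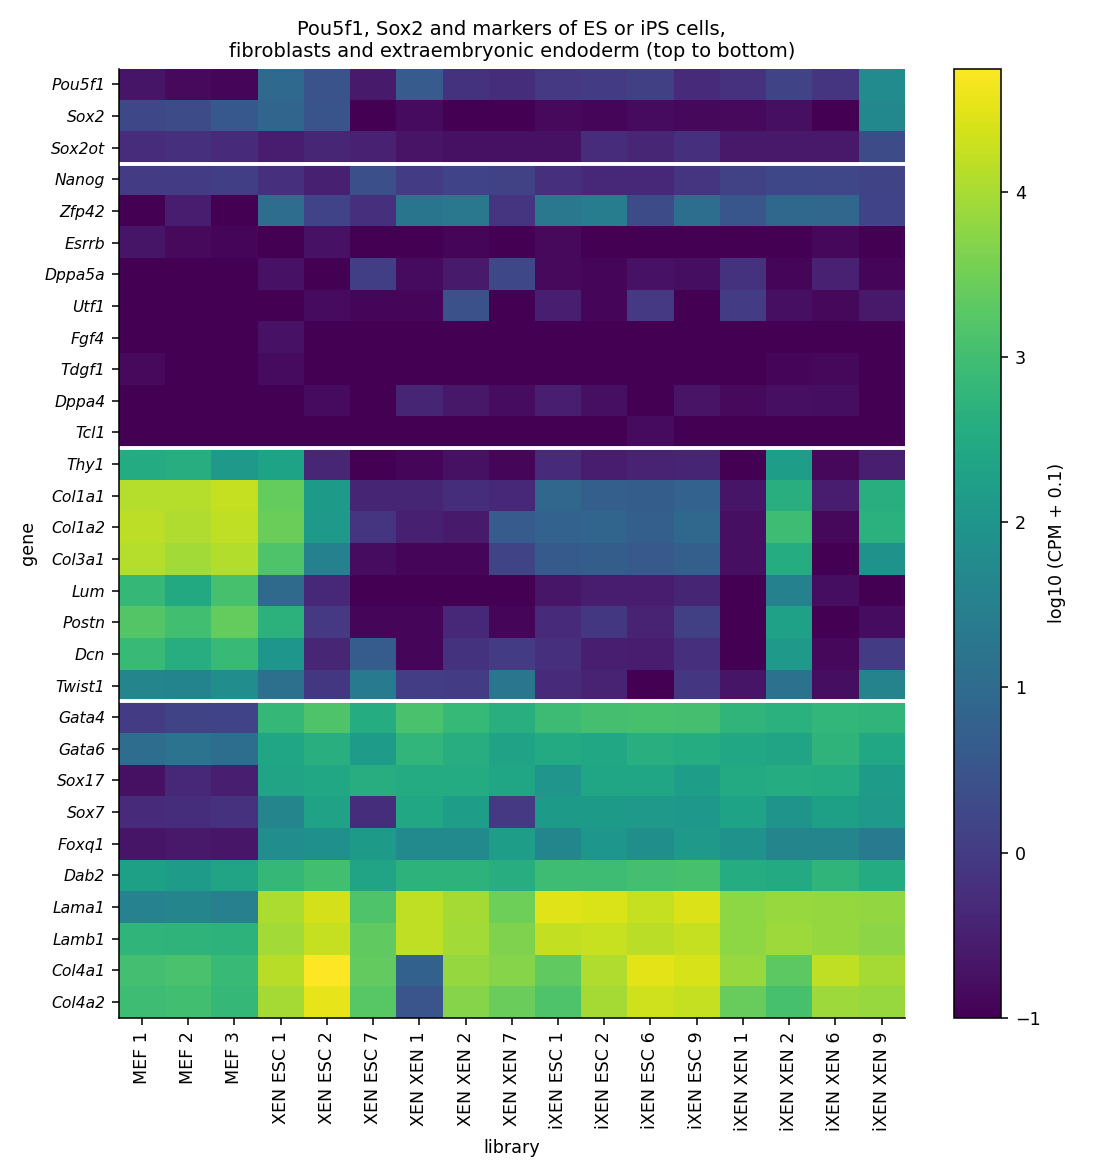
Levels, as log10 of CPM + 0.1, of Pou5f1, Sox2 and Sox2ot (top) and of markers of ES and iPS cells, fibroblasts and extraembryonic endoderm, in the 17 libraries. In iXEN XEN 9 each of the upper rows is at its highest of the 17 libraries, while 5 of 9 ES and iPS cell markers have 0 counts. Outside MEF, the fibroblast rows Col1a1, Col1a2 and Col3a1 are brightest in XEN ESC 1 and 2 and iXEN XEN 2 and 9. Thy1, Lum, Postn and Dcn are lit in XEN ESC 1 and iXEN XEN 2 but are at most at 0.898 CPM in XEN ESC 2 and iXEN XEN 9. Twist1 is lit in XEN ESC 1 and iXEN XEN 2 and 9, and also in XEN ESC 7 and XEN XEN 7 (23.3 and 18.1 CPM).

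Across libraries, Pou5f1 and Sox2 correlated more closely over the endoderm libraries than with MEF included. Pearson's r of their log2 CPM was 0.89 over the 14 XEN and iXEN libraries, 0.77 over the 13 without iXEN XEN 9, and 0.38 over all 17, where MEF combine Sox2 with almost no Pou5f1. Among the endoderm libraries, only XEN ESC 1, XEN ESC 2 and iXEN XEN 9 had Sox2 above the floor of 3 counts. The r of 0.89, and the genes most like Sox2 over the endoderm libraries, rest mainly on these. The r of 0.77 rests mainly on XEN ESC 1 and XEN ESC 2. XEN XEN 1 went against the relation, with Pou5f1 at 4.43 CPM, the third highest level, and Sox2 at 0.0490 CPM. Klf4 and Myc ran against each other, with r of -0.58 over 17 and -0.56 over 14 libraries. The libraries within a group share cell type and medium, so these values describe the 17 libraries. By highest r with each factor over the 14 endoderm libraries, the genes most like Pou5f1 included Car11 (0.95) and Mgp (0.89), and Sox2 was most like Itgbl1, Prelp and Fmod (each 0.98). Prelp stood at 457 CPM and Fmod at 252 CPM in iXEN XEN 9, above their highest MEF levels of 44.4 and 69.6 CPM. Klf4 was most like Vsig2 and Lhfpl4 (each 0.92) and Slc25a51 (0.88), and Myc most like Etv5 (0.89), B4galnt4 (0.87) and 2210416O15Rik (0.84). Over all 17 libraries the closest genes were Cnpy3 (0.86), C330021F23Rik (0.83) and Tmprss5 (0.82) for Pou5f1, and Prelp (0.97), Fmod (0.96) and Miat (0.95) for Sox2. For Klf4 they were Lhfpl4 (0.89), Syvn1 (0.86) and Vsig2 (0.86), and for Myc Etv5 (0.86), B4galnt4 (0.86) and Stc2 (0.82).

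Among relatives of the factors, Mycn, Klf5, Sox21 and Pou2f1 were called higher than MEF in all 4 comparisons and Klf2 lower. The counts of list members called below stand beside 46.7% of all genes called in iXEN and 25.0% in XEN cells in ESC medium, and 32.6% in iXEN and 47.5% in XEN cells in XEN medium. Mycn, the Myc paralog of embryonic and neural progenitors, stood at 0.774, 2.22 and 0.854 CPM in MEF and at 11.3 to 187 CPM in all 14 endoderm libraries. It rose against MEF by 4.38 in iXEN and 4.40 in XEN cells in ESC medium (edgeR adjusted p = 0.000275 and 0.0113), and by 6.18 and 6.36 in XEN medium (adjusted p = 0.00254 and 0.00135). Mycn was higher in XEN medium than in ESC medium in 7 of 7 numbers, by 1.93 to 2.06 in XEN and 0.79 to 2.78 in iXEN cells on the log2 scale, yet this missed the test (edgeR adjusted p = 0.8 and 0.0943). Libraries are joined here by number alone, and the share of all genes that rose in all 7 is not given. Per kilobase of exon, mean Mycn passed mean Myc in XEN medium, in XEN cells (36.5 against 16.2 CPM per kilobase) and in iXEN cells (32.3 against 25.1). In MEF the order was the reverse, with 0.457 for Mycn and 18.8 for Myc. Of 12 listed Myc relatives and partners, 11 were tested: 5 rose and 2 fell in iXEN cells in ESC medium, 5 and 0 in XEN cells in ESC medium, 4 and 1 in iXEN cells in XEN medium, and 5 and 2 in XEN cells in XEN medium. The share called, 45.5% to 63.6% of those tested, was above that of all genes in each. The median log2 fold change of the list was 0.29 to 0.91 in these 4 comparisons, beside -0.03 to 0.06 over all genes. Max, the common dimer partner, rose in all 4 comparisons, by 0.68 to 1.21 on the log2 scale.

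Klf5, which shares targets with Klf4 in pluripotent cells and gut, stood at 9.60, 9.97 and 9.19 CPM in MEF and at 23.3 to 155 CPM in the endoderm libraries. It rose by 2.91 to 3.26 in the 4 comparisons with MEF (edgeR adjusted p = 1.4e-05 to 0.0212). Klf2, a further relative with overlapping roles, stood at 28.8 ± 16.3 CPM in MEF (SD, n = 3) and fell in all 4, with log2 fold changes of -3.40 to -2.16. Klf6, an early-response relative, fell in 3 of the 4 comparisons and lay at -0.63 in XEN cells in XEN medium (edgeR adjusted p = 0.0503). Of 16 Klf relatives 14 were tested. In ESC medium 4 rose and 5 fell in iXEN cells and 1 and 6 in XEN cells, and in XEN medium 3 rose and 6 fell in iXEN cells and 2 and 3 in XEN cells. The share called was 64.3%, 50%, 64.3% and 35.7% in that order, below that of all genes in the last. The list's medians were 0.07, -1.05, -1.23 and -0.44 in that order. Per kilobase, Klf4 (122 CPM per kilobase) stood above Klf6 (43.8), Klf5 (17.3) and Klf2 (2.52) in iXEN cells in ESC medium, whereas in MEF Klf6 (92.0) stood above Klf4 (50.1), Klf2 (15.6) and Klf5 (1.84).

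Among 16 POU and SoxB-type relatives, between 4 and 6 passed the filter. Sox21, a SoxB2 factor, stood at 0.125 ± 0.0190 CPM in MEF (SD, n = 3) and at 2.43 to 45.5 CPM in the endoderm libraries, and it rose by 6.62 to 7.79 on the log2 scale, having passed the filter through the endoderm libraries alone. Pou2f1 (Oct1), a widely active octamer-binding factor, rose by 1.76 to 2.62 in the 4 comparisons. Both were called in all 4, while 2, 0, 1 and 2 relatives fell in iXEN and XEN cells in ESC medium and in iXEN and XEN cells in XEN medium. The share called was 50% to 80% of those tested, above that of all genes in each, on few genes. The list's medians were 0.45, -0.13, -0.02 and 0.70. The closest Sox2 relatives, Sox1 and Sox3, were at most at 0.271 and 1.33 CPM in any library.

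**Figure D5:**
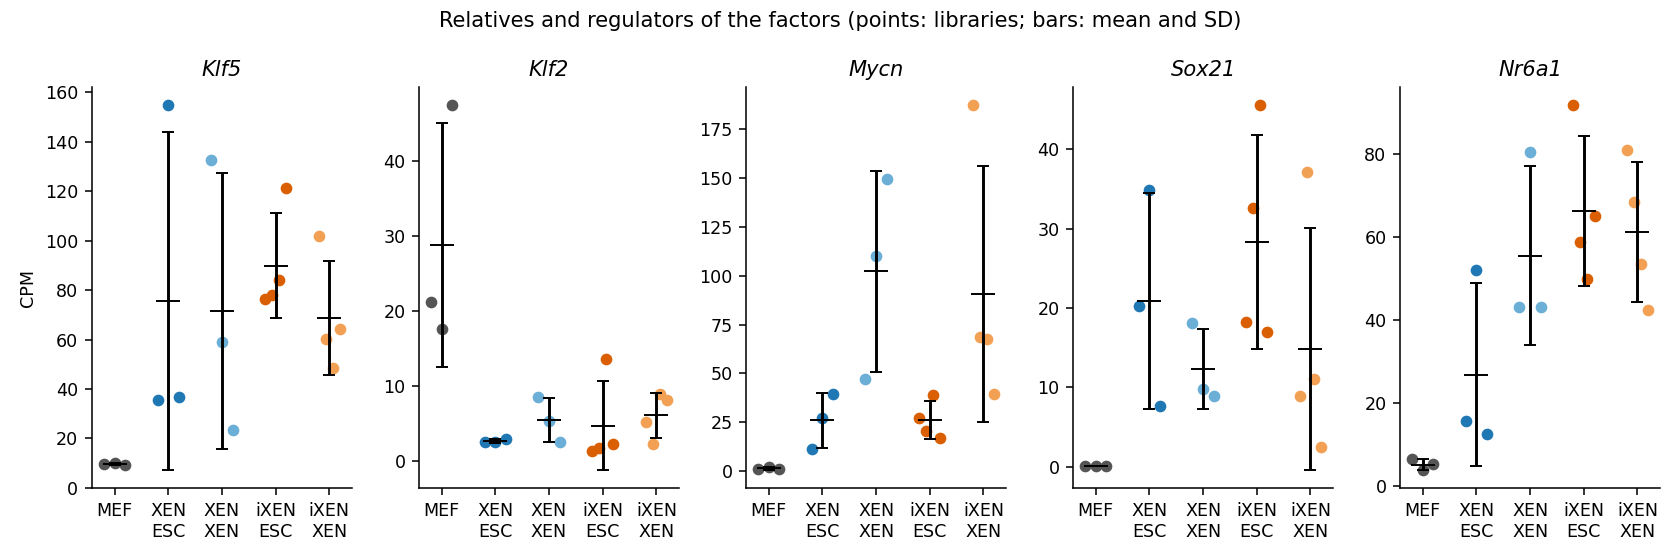
Levels in CPM of Klf5, Klf2, Mycn, Sox21 and Nr6a1 in each library (points) with the group mean and SD (bars). Klf5, Mycn and Sox21 lie above MEF in all 14 endoderm libraries, Mycn means are higher in XEN medium than in ESC medium, and Klf2 lies below the MEF libraries in all 14.

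Genes that Pou5f1 and Sox2 activate in pluripotent cells were divided between some that rose and others at or near 0. Of 20 listed genes, 8 passed the filter in each comparison with MEF. In iXEN and XEN cells in ESC medium 5 and 4 rose and 0 fell, and in iXEN and XEN cells in XEN medium 5 and 5 rose and 0 and 1 (Gdf3) fell. Members that are near 0 in MEF passed the filter through the endoderm libraries alone, so a difference was built into passing, and these counts do not speak for the 20. The members that rose were Lin28a and Sall4, an RNA-binding protein and a zinc-finger factor of early embryonic and germ cells, together with Fbxo15, Tfcp2l1 and, outside XEN cells in ESC medium (6.11, edgeR adjusted p = 0.0555), Zfp42 (Rex1). Lin28a went from 0.147 to 0.155 CPM in MEF to 64.7 to 520 CPM in the endoderm libraries, with log2 fold changes of 9.14 to 11.10. Sall4 went from 0.206 to 0.348 CPM to 71.7 to 357 CPM, with 8.47 to 9.78. In contrast, Fgf4, Lefty1, Esrrb and Tdgf1 were at most at 0.116 CPM in every library, iXEN XEN 9 included, where all 4 had 0 counts. Nanog lay between 0.224 and 2.43 CPM and was not called in any comparison. Sall4 is known to be active in extraembryonic endoderm as well as in pluripotent cells.

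Among genes known to regulate Pou5f1, Nr6a1 and Foxd3 were called against MEF in all 4 comparisons. Nr6a1 (GCNF), a nuclear receptor that silences Pou5f1 at its promoter in differentiating cells, stood at 5.20 ± 1.28 CPM in MEF (SD, n = 3) and at 12.7 to 91.7 CPM in the endoderm libraries. It rose by 2.42 to 3.71 (edgeR adjusted p = 3.33e-05 to 0.0356). Foxd3 fell in all 4 comparisons with MEF, where it stood at 1.12 to 2.83 CPM, to 0 counts or 1 count in each endoderm library, so that it passed the filter through MEF alone. Of 13 listed regulators, 10 or 11 were tested: 3 rose and 3 fell in iXEN cells in ESC medium, 1 and 1 in XEN cells in ESC medium, 1 and 2 in iXEN cells in XEN medium, and 4 and 4 in XEN cells in XEN medium. The share called was 60%, 20%, 30% and 72.7%, below that of all genes in the middle pair. The list's medians were -0.57, -0.44, 0.09 and -0.71 in that order.

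The LIF and WNT route, through which ES cells sustain Klf4 and Myc, moved in both directions. Lif itself rose by 2.21 to 3.13 in the 4 comparisons with MEF, from 4.84 to 6.89 CPM in MEF to 14.3 to 74.2 CPM. Its receptor gene Lifr rose in 3 of 4 and lay at 2.12 in XEN cells in ESC medium (edgeR adjusted p = 0.0879). The shared receptor chain Il6st, at 1005 to 1378 CPM in MEF, changed by -4.45 to -3.27 and was called lower in all 4. Stat3, the factor that relays the signal, fell in 3 of 4 and lay at -0.72 in XEN cells in XEN medium (adjusted p = 0.0686). Of 12 listed genes, 3 rose and 4 fell (11 tested) in iXEN cells in ESC medium, 1 and 5 (12) in XEN cells in ESC medium, 2 and 4 (12) in iXEN cells in XEN medium and 3 and 3 (11) in XEN cells in XEN medium, with medians of -0.07, -0.71, -0.25 and -0.16. The share called was 63.6%, 50%, 50% and 54.5%, above that of all genes in each.

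Of the Myc target genes of ribosome making and growth, more rose than fell against MEF in each comparison, with Myc itself not called. All 20 were tested. In ESC medium 5 rose and 2 fell in iXEN cells (median 0.47) and 4 and 1 in XEN cells (median 0.83), and in XEN medium 13 and 0 in iXEN cells (median 1.60) and 10 and 0 in XEN cells (median 1.13). The share called was 35%, 25%, 65% and 50% in that order, below or equal to that of all genes in ESC medium, above it in iXEN cells in XEN medium and near it in XEN cells in XEN medium. Odc1, the first enzyme of polyamine synthesis, rose in all 4, by 1.72 to 2.31. Ncl (nucleolin) rose in XEN medium, by 1.61 in iXEN and 1.38 in XEN cells (edgeR adjusted p = 0.0414 and 0.0120), and lay at 0.65 and 0.83 in ESC medium (adjusted p = 0.0855 and 0.199). Ccnd2 fell in iXEN and XEN cells in ESC medium, by 2.51 and 1.70 on the log2 scale. Whether the 2 media differ was not decided by these counts, and 0 of the 20 were called between media by edgeR in either cell type.

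Epithelial genes listed as Klf4 targets had no common answer. Of 14 listed genes, 4 rose and 1 fell of 10 tested in iXEN cells in ESC medium, 1 and 0 of 9 in XEN cells in ESC medium, 0 and 0 of 9 in iXEN cells in XEN medium, and 6 and 1 of 10 in XEN cells in XEN medium. The share called was 50%, 11.1%, 0% and 70% in that order, of which the middle pair lie below that of all genes. The medians were 1.28, 0.91, 0.56 and 1.38. Cdh1 (E-cadherin) rose by 3.02 in iXEN cells in ESC medium and by 5.54 in XEN cells in XEN medium, with XEN 7 far above the others (214 CPM in ESC and 164 CPM in XEN medium, against at most 25.3 CPM elsewhere). Ccnd1, which Klf4 represses in gut epithelium, fell in iXEN cells in ESC medium by 5.79 on the log2 scale and was not called in the other 3. Of the 11 chromosomal neighbours of the 4 factors, 8 were tested, of which 0, 1, 1 and 1 rose and 1, 0, 0 and 3 fell in iXEN and XEN cells in ESC medium and iXEN and XEN cells in XEN medium. That is 12.5% in the first 3, below the share of all genes, and 50% in the last. In all 9 lists, 0 genes were called by edgeR between iXEN and XEN cells or between media.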

How the data were processed

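The deposited files hold whole-number read counts per gene symbol, made by the authors with tools that the submitters' processing notes name as FastQC 0.11.3, Trimmomatic 0.32, TopHat2 2.0.12 and HTSeq 0.6.1, with genome build mm9. The sources used here do not give their order, parameters, annotation or strand setting. Counts are therefore uncertain where genes overlap or have near-identical copies. Lines of the counter for unassigned reads (20.8% to 33.1% of a file) stayed out of library sizes and tests. Libraries held 20071567 to 45914262 counts, and within groups all 21 pairs of libraries differed beyond sampling noise.

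Groups followed the labels. Each of 9 comparisons was fitted on its own groups with edgeR 4.0.16 in R 4.3.3 (filterByExpr with minimum count 10 and minimum total 15, TMM scaling, quasi-likelihood test, two-sided, Benjamini-Hochberg over all genes tested, threshold 0.05), and a gene that rose, fell or was called passed that threshold. CPM use TMM factors over all 17 libraries, and correlations use log2 CPM with a prior count of 2. SE was derived from the fold change and the F statistic. The code was tested on simulated counts. Per-length values use exon lengths of a GRCm38 annotation, and promoters come from RefSeq, so that neither is of the build of the counts. All 177 listed symbols were found, 1 under another symbol (Mycl for Mycl1). From each list, genes were named by mean CPM or by the size of a called change, with up to 4 of the former and 2 of the latter per comparison. Other genes named (Klf2, Sox1, Sox3, Esrrb, Fgf4, Lefty1, Tdgf1, Dppa4, Tcl1, Lif, Sox2ot, Twist1 and Rarg among them) were chosen after their values were seen. Some genes and a marker list that these rules cover are not reported here. The members and lists were chosen with earlier results of these data known. Alternatives were RLE scaling, no filter, DESeq2 1.42.0, 1 fit of 5 groups, a replicate block and leaving out libraries.

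For the XEN libraries of both media, the deviations of same-numbered libraries from their group means correlated at 0.24 to 0.63 in all 3 pairs. Of the XEN libraries in XEN medium, 2 correlated best with their own number, while XEN XEN 1 correlated best with XEN ESC 2. The numbers are therefore not certain to mark pairs. The block changed no call there.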

Additional observations from a re-analysis of the deposited data

Results flagged for a closer look

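In the 4 libraries of iXEN cells in XEN medium, iXEN XEN 9 lay apart from the others by more than Dixon's 95% limit for 4 values (a gap of 0.829 of the range) for Pou5f1 (58.4 CPM), Sox2 (48.2 CPM) and Sox2ot (2.03 CPM). Each gap was over 0.98 of the range (0.986, 0.998 and 0.998). The test was made on 10 sets of 4 libraries. Chance flags about 1 in 20 if values are normally distributed, which was not checked for these CPM. All flags here come from the same library, so they are not independent of each other. Sox2ot was chosen after its values were seen, so its gap is a description.

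For Klf4, the change with XEN medium went up in every XEN number and down in every iXEN number, with an interaction of -1.39 on the log2 scale. The test of the interaction did not pass (edgeR adjusted p = 0.398).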

How the results depend on the processing

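The number of the 4 factors called changed with the method. With all 5 groups in 1 fit it was 0 for iXEN cells in ESC medium, 1 for XEN cells in ESC medium and 0 for XEN cells in XEN medium, each against MEF. Without the filter on low counts it was 1 for XEN cells in ESC medium against MEF. With DESeq2 it was 1 there, 1 between iXEN and XEN cells in ESC medium, 1 between the media in XEN cells and 1 in the interaction. For iXEN cells in XEN medium against MEF, against XEN cells and against ESC medium, DESeq2 gave no adjusted p for Pou5f1 and Sox2, so no number is given. With iXEN XEN 9 left out and no filter, a setting chosen after seeing the data, it was 2 for iXEN cells in XEN medium against MEF.

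Directions turned as follows. With that last setting Sox2 stood at -5.79 in iXEN cells in XEN medium against MEF, and Pou5f1 at -1.13 against XEN cells in XEN medium. With RLE size factors Myc stood at -0.0040 between the media in XEN cells, and without both iXEN libraries numbered 9, also chosen after seeing the data, Pou5f1 stood at -0.11 between the media in iXEN cells. The cause was not tested.

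Leaving out 1 library at a time moved the number called between 0 and 1 for XEN cells in ESC medium, 0 and 2 for iXEN cells in XEN medium and 1 and 3 for XEN cells in XEN medium, each against MEF, and between 0 and 1 for iXEN against XEN cells in ESC medium. Against MEF, Sox2 ranged from -0.67 to 1.25 in XEN cells in ESC medium and from -5.78 to 2.89 in iXEN cells in XEN medium, and Myc from -0.34 to 0.031 in XEN cells in XEN medium. Between iXEN and XEN cells in XEN medium, Pou5f1 ranged from -1.06 (without iXEN XEN 9) to 4.85 and Klf4 from -0.82 to 0.13 (without XEN XEN 1). Between the media in XEN cells, Pou5f1 ranged from -2.92 to 0.31 (without XEN ESC 1), Klf4 from -0.095 (without XEN XEN 1) to 0.87 and Myc from -0.14 to 0.22.

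Outside the XEN pairs, deviations of same-numbered libraries correlated at only -0.26 to 0.18. With the label number as a replicate block, the number called was 0 for iXEN cells in XEN medium against MEF, with Sox2 at -4.86. This fit called 0 of all 14438 genes tested, so it says little about the factors. With this block Pou5f1 stood at -0.86 between iXEN and XEN cells in XEN medium. The values -4.86 and -0.86 rest on numbers 1 and 2 alone, the only numbers that the compared groups share. The iXEN library with the highest Sox2 and Pou5f1 in XEN medium therefore did not enter them. The block called Myc lower in iXEN cells in ESC medium (-1.14, edgeR adjusted p = 0.0198) and Klf4 higher in XEN cells in XEN medium (1.35, adjusted p = 0.0284), each against MEF. Both fold changes rest on numbers 1 and 2 alone, which leaves little to measure the spread, so these calls carry little weight. Between the media, 3 of 4 libraries correlated best with their own number in iXEN cells and 2 of 3 in XEN cells. Depth limits Sox2, at 0 to 3 counts in 11 libraries, and Pou5f1 in MEF, at 5 counts in all.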
